A study of Mus musculus with 6 samples.

Results

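The mRNAs of 9 genes that make pulmonary surfactant and store it in lamellar bodies (Sftpa1, Sftpb, Sftpc, Sftpd, Abca3, Lamp3, Napsa, Ctsh and Slc34a2) were compared between alveolar type II cells of Stat3Δ/Δ mice and littermate controls. Every probe set annotated to 1 of these genes alone was taken, which gave 14 probe sets for 8 of the 9 genes, of 45037 probe sets and 18193 genes on the array. The only probe set of Lamp3 is shared with Ppid, so Lamp3 has no value. At the brightest of its 3 probe sets, the signal of Abca3 was lower on all 3 Stat3Δ/Δ arrays than on the lowest control array, at 56.1% of the control mean, and did not pass the false discovery rate (FDR). At another bright probe set of Abca3 the groups overlapped, with a mean at 72.9% of the control mean. The 4 surfactant protein genes had log2 fold changes of -0.053 to 0.051 at the brightest probe set of each after quantile normalization. These were -0.15 to -0.075 with no normalization between arrays and -0.29 to -0.22 with arrays centred on their medians. Their signals overlapped between the groups.

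Surfactant is a film of phospholipid and protein that lowers surface tension in the alveolus. Type II cells assemble it in lamellar bodies, lysosome-related organelles that are secreted at the apical surface. SP-A and SP-D, encoded by Sftpa1 and Sftpd, are collectins of innate defence, while SP-B and SP-C, encoded by Sftpb and Sftpc, are small hydrophobic proteins that help the phospholipid film to spread. ABCA3 is the transporter of the lamellar body membrane that carries phospholipid into the organelle, and LAMP3 is a membrane glycoprotein of the same compartment. Napsin A (Napsa) and cathepsin H (Ctsh) are proteases that cleave the SP-B precursor, and Slc34a2 encodes a sodium-phosphate cotransporter of the apical membrane.

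Type II cells were isolated with collagenase and differential plating from sex-matched littermates 8 weeks old. Each RNA came from the pooled cells of 3 mice, and 3 pools of each group were hybridized to 1 MOE430 array each. Stat3Δ/Δ mice carried SP-C-rtTA, (tetO)7CMV-Cre and Stat3flx/flx, and doxycycline in the food of the dams, from conception until after birth, deleted exon 21 of Stat3 in respiratory epithelial cells. In the labels the controls are double transgenic for SP-C-rtTA and (tetO)7CMV-Cre, whereas the study's methods describe non-deleted littermates that carried either transgene with Stat3flx/flx, and 1 label field names the triple line for every sample. The titles of the samples open with a number that the sources used here do not explain. It is 2 for Stat3Δ/Δ pools 1 and 2 and control pool 3. It is 5 for Stat3Δ/Δ pool 3 alone and 12 for control pools 1 and 2. Outside the 3 arrays numbered 2, this number and the group therefore cannot be told apart. A further number follows it in the titles, also unexplained, and differs between the 3 arrays numbered 2. The SP-C promoter that drives rtTA is the promoter of a surfactant gene. The study describes the deletion as permanent and made before birth, so it need not follow where Sftpc is active at 8 weeks. The study's methods name alveolar macrophages as the main other cell of the isolates. They also report that purity, judged by a stain, and the number of type II cells did not differ between the groups.

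STAT3 is a transcription factor, and the study asked which mRNAs depend on it. RefSeq windows on GRCm38.p6, from 250 bases before to 50 bases after the gene's start, were found for 5 of the 9 genes, Abca3, Slc34a2, Sftpb, Sftpa1 and Lamp3, and were searched on both strands for the letters TTCNNNGAA (STAT), TCACNCCAC (sterol regulatory element binding protein, SREBP), TGTTTNC (forkhead) and CTCAAG (NKX2-1). The 250 bases before the start are shown for Abca3 (chr17:24351773-24352022, plus strand) and Slc34a2 (chr5:53049103-53049352, plus strand), the genes that were lower on every Stat3Δ/Δ array after normalization, and for Sftpb (chr6:72304360-72304609, plus strand), a surfactant protein gene for comparison. Capitals mark a match to any of the 4 motifs.
Abca3: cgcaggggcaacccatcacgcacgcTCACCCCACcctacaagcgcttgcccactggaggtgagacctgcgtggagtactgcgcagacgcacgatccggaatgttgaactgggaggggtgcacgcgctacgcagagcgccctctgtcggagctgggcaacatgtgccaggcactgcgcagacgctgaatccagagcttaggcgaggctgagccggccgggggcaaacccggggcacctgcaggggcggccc
Slc34a2: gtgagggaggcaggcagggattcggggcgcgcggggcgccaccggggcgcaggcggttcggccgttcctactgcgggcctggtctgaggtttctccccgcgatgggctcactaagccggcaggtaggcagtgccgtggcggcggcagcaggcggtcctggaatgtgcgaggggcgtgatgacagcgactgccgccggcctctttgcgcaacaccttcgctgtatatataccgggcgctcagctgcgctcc
Sftpb: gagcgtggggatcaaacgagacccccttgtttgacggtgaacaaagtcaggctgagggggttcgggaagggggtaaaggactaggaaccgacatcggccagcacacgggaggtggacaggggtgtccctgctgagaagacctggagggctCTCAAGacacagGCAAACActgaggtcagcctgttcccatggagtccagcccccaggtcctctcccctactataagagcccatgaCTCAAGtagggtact

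The Abca3 window held 1 match, TCACCCCAC, the letters of the SREBP motif, from -225 to -217, which 1.24% of 32851 windows of this length hold. The Slc34a2 window held none of the 4 motifs. The Sftpb window held CTCAAG from -100 to -95 and from -15 to -10, and GCAAACA, the forkhead motif on the opposite strand, from -88 to -82. CTCAAG was present in 15.9% of all windows and the forkhead letters in 20.5%. Sftpa1 held CTCAAG from -166 to -161. The STAT letters, present in 8.3% of all windows, were matched in the window of Lamp3 alone among the 5, as TTCCTGGAA from -181 to -173. The matches are descriptions of these short windows and are no measure of binding.

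The deposited values are linear signals. Log2(signal + 69.9) was quantile normalized and fitted with limma over all 45037 probe sets, so each log2 fold change is Stat3Δ/Δ less control on that scale, which understates the difference of a dim probe set. The limma p-values, SEs and intervals rest on the spread between pools, moderated towards a spread shared over all probe sets. At the brightest probe set of Sftpa1 the SDs of the log2 values were 0.026 (Stat3Δ/Δ) and 0.050 (control), beside an SE of 0.23. The methods' t-test, without that moderation, gave this probe set an unadjusted p of 0.181. Precision is limited by having 6 arrays. Of 4 Stat3 probe sets, both of the brighter ones were lower on every Stat3Δ/Δ array, with log2 fold changes of -0.71 and -0.80 (adjusted p = 0.533 and 0.501 from limma), and the others gave -0.047 and 0.60. Where they lie relative to exon 21 was not analysed here. The median of all genes was -0.085, and -0.039 with no normalization between arrays or -0.18 with arrays centred on their medians. Markers of type II cells other than the 9 genes had a median of 0.011 (6 of 7 measured), with summed signals of 254892 to 313187 on Stat3Δ/Δ arrays and 286028 to 341460 on control arrays. Lists for other cells had medians of -1.73 for fibroblasts (6 of 6 measured), -0.87 for ciliated cells (8 of 8), -0.32 for airway secretory cells (6 of 6), -0.29 for endothelial cells (6 of 6), 0.017 for lymphocytes (5 of 6), 0.091 for type I cells (8 of 8), 0.58 for alveolar macrophages (6 of 7) and 1.68 for neutrophils (3 of 4). With median centring the type II markers gave -0.24 and the type I markers -0.064, and with the title number as a block the medians were -0.78 for fibroblasts, -0.21 for type II cells and 1.18 for neutrophils. The summed signals did not overlap for fibroblasts (4918 to 10329 in Stat3Δ/Δ and 15665 to 31031 in control cells), neutrophils (19206 to 25383 and 3503 to 11497) or macrophages. In pooled cells of this kind, fewer cells of a type and less RNA per cell cannot be told apart.

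At the study's thresholds (a 1.5-fold change, an FDR of 10% and an unadjusted limma p of 0.05), 0 of the 14 probe sets passed, beside 0.00222% of all probe sets. The study applied them to Robust Multichip Average (RMA) values and exempted from the FDR mRNAs that changed consistently in several probe sets. Here they were applied to the deposited signals, without that exemption. The adjusted p of the 14 ran from 0.525 to 0.995 (limma), and 1 of 14 had an unadjusted p of at most 0.05, beside 8.45% of all probe sets. Without the FDR, 1 of 14 was lower, beside 4.22% of all probe sets, and 0 were higher, beside 4.14%. The 1 is the brightest of the 3 Abca3 probe sets. On every Stat3Δ/Δ array, 2 of 14 were lower than on every control array, beside 7.66% of all probe sets, and 0 were higher, beside 5.99%. With so few members, these counts do not set the genes apart from the rest of the array. The 14 fold changes lay below 0 for 8 and above 0 for 6, with a median of -0.033. By the brightest probe set of each of the 8 genes the median was 0.0041, and it was -0.12 with no normalization and -0.26 with arrays centred on their medians.

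**Figure D1:**
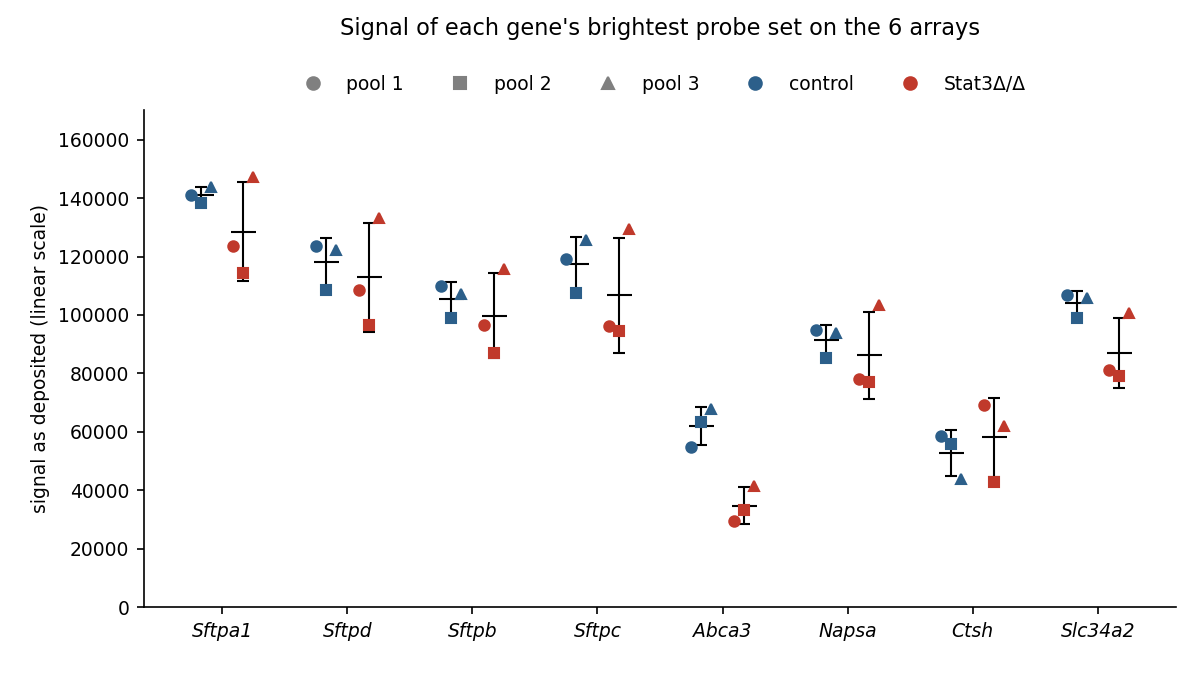
Signal as deposited (linear axis from 0) of the brightest probe set of each gene on the 6 arrays, with control pools in blue and Stat3Δ/Δ pools in red; horizontal lines are means and error bars are SDs (n = 3 pools). The 3 Stat3Δ/Δ pools of Abca3 (29374 to 41560) sit below its 3 control pools (54888 to 67886), and the pools of every other gene overlap.

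The signals of the collectin genes overlapped between the groups. The brightest probe set of Sftpa1 (1422334_a_at) had signals of 123762, 114472 and 147209 on the arrays of Stat3Δ/Δ pools 1 to 3 and 140958, 138188 and 143748 on those of control pools 1 to 3. Pools 1 and 2 of the Stat3Δ/Δ mice were below all controls and pool 3 was above them. The log2 fold change was -0.053 (standard error, SE, 0.23, 95% interval -0.58 to 0.47, limma adjusted p = 0.97), and the other scalings, no normalization and median centring in that order, gave -0.14 and -0.28. This probe set ranked between 2 and 6 on each array, at 90.5% to 96.9% of the array's highest signal. Quantile normalization gives a rank the same value on every array. A probe set that stays near the top rank therefore has little room to differ after it. Whether the place at the top of the range bears on the deposited signals was not tested. Another probe set of Sftpa1 (1429626_at) had 82850, 83256 and 97556 in Stat3Δ/Δ pools against 94500, 86542 and 98473 in control pools, with a log2 fold change of 0.035, and -0.086 and -0.23 under the other scalings.

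Sftpd (1420378_at) had signals of 108712, 96735 and 133335 in Stat3Δ/Δ pools 1 to 3 and 123468, 108546 and 122322 in control pools 1 to 3. Stat3Δ/Δ pool 3 had the highest and pool 2 the lowest signal of the 6. The log2 fold change was 0.051 (SE 0.23, 95% interval -0.48 to 0.58, limma adjusted p = 0.972), and -0.075 and -0.22 under the other scalings.

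The hydrophobic surfactant protein genes also overlapped between the groups. Sftpb (1437028_at) had signals of 96558, 87021 and 115715 in Stat3Δ/Δ pools 1 to 3 and 110003, 98969 and 107253 in control pools 1 to 3. Its log2 fold change was 0.028 (SE 0.23, 95% interval -0.50 to 0.56, limma adjusted p = 0.987), and -0.088 and -0.23 under the other scalings. As for Sftpa1, Stat3Δ/Δ pools 1 and 2 were below the controls and pool 3 was above them.

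Sftpc (1418639_at) had 96381, 94430 and 129372 in Stat3Δ/Δ pools 1 to 3 and 119178, 107379 and 125714 in control pools 1 to 3, so that its arrays overlapped too. The log2 fold change was -0.012 (SE 0.23, 95% interval -0.54 to 0.52, limma adjusted p = 0.995), and -0.15 and -0.29 under the other scalings. Another probe set annotated to Sftpc was dim on every array, at 10.7 to 46.3, with a log2 fold change of -0.30 (limma adjusted p = 0.772). After quantile normalization the 95% intervals of the 4 surfactant protein genes, at the brightest probe set of each, lay between -0.58 and 0.58, a fold of up to 1.49 in either direction. These probe sets ranked between 2 and 69 on the arrays, so the limit given for Sftpa1 bears on their normalized values too. Airway secretory cells also express some surfactant proteins, and the summed signal of their 6 markers was 316669 to 447629 in Stat3Δ/Δ cells and 417473 to 518390 in control cells. Of their defining markers, Scgb1a1 had a log2 fold change of 0.012 and Scgb3a1 of -0.96. Their part in the surfactant protein values was not tested.

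**Figure D2:**
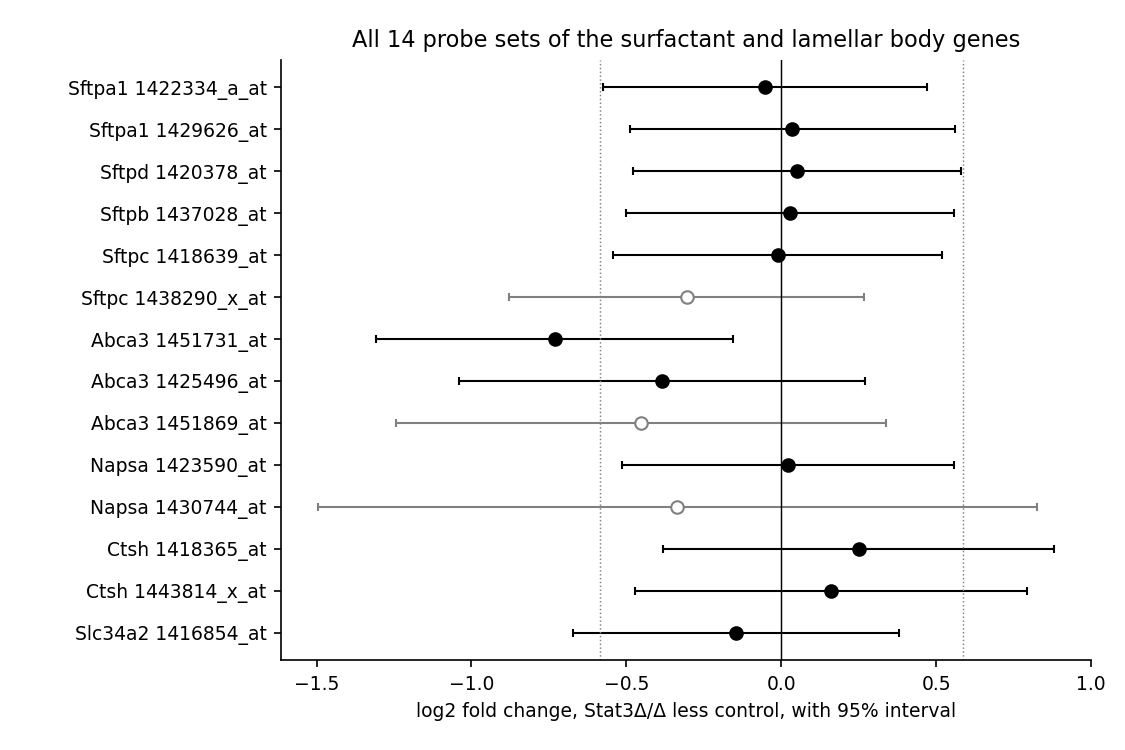
Log2 fold change (Stat3Δ/Δ less control, quantile normalized) of all 14 probe sets with the 95% interval from limma; open grey points are the 3 probe sets with signals below 300 on every array and dotted lines mark a fold of 1.5. The brightest Abca3 probe set is the 1 whose interval, -1.31 to -0.16, does not reach 0, and with median centring the Sftpd, Sftpb, Napsa, Ctsh and positive Sftpa1 points move below 0.

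Abca3, the phospholipid transporter of the lamellar body, had lower signals on every Stat3Δ/Δ array at its brightest probe set (1451731_at). This probe set had signals of 29374, 33417 and 41560 in Stat3Δ/Δ pools 1 to 3 and 54888, 63244 and 67886 in control pools 1 to 3. The highest Stat3Δ/Δ pool was below the lowest control pool. The means were 34780 ± 6207 (SD, n = 3 pools) and 62010 ± 6587 (SD, n = 3 pools). The log2 fold change was -0.73 (SE 0.25, 95% interval -1.31 to -0.16), a fold of 1.66, with an unadjusted p = 0.0189 and a limma adjusted p = 0.525. It was -0.84 with no normalization and -0.98 with arrays centred on their medians. Within the 3 arrays that share a title number (Stat3Δ/Δ pools 1 and 2 and control pool 3) it was -1.02.

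The direction was the same under all 17 alternatives run, with log2 fold changes from -1.02 to -0.52. The adjusted p, where an alternative gave one, ran from 0.309 to 0.867 (both limma). Alternatives that altered only the filter or the error could not move the fold change from -0.73. The title number as a block and the arrays within it gave the same -1.02. The value of -0.52 is the mean over the 3 Abca3 probe sets. The count of 17 is therefore no measure of independent support. With 1 array left out, the log2 fold change of the brightest probe set was -0.86 to -0.62. Its unadjusted limma p was above 0.05 without Stat3Δ/Δ pool 1 (0.0507), without control pool 2 (0.0519) and without control pool 3 (0.0592). The other probe sets of Abca3 gave smaller differences. A dimmer one (1425496_at), designed from the same cDNA, had 15941, 15326 and 23355 in Stat3Δ/Δ pools against 21319, 23586 and 30000 in control pools. Here Stat3Δ/Δ pool 3 was above control pool 1, and the log2 fold change was -0.39 (SE 0.29, limma adjusted p = 0.745). The third (1451869_at) was dim throughout, at 21.5 to 140.7, with -0.45 (limma adjusted p = 0.751). All 3 were below 0, also under both other scalings.

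The proteases of SP-B processing did not separate the groups. Napsa (1423590_at) had signals of 78130, 76959 and 103445 in Stat3Δ/Δ pools 1 to 3 and 94963, 85196 and 93704 in control pools 1 to 3, with pools 1 and 2 below and pool 3 above the controls. Its log2 fold change was 0.020 (SE 0.23, 95% interval -0.51 to 0.56, limma adjusted p = 0.99), and -0.095 and -0.24 under the other scalings. A dim probe set of Napsa varied from 21.9 to 208.9 within the Stat3Δ/Δ group and from 22.3 to 200.8 within the controls, a spread that leaves its fold change of -0.34 without precision (SE 0.50).

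Ctsh (1418365_at) had 69161, 42918 and 62140 in Stat3Δ/Δ pools 1 to 3 and 58605, 55799 and 43783 in control pools 1 to 3. Its lowest and its highest signal were both in Stat3Δ/Δ pools, and its order of arrays differed from that of Napsa. The log2 fold change was 0.25 (SE 0.27, 95% interval -0.38 to 0.88, limma adjusted p = 0.833), 0.12 with no normalization and -0.019 with median centring. Its other probe set gave 0.16 (limma adjusted p = 0.905), and -0.052 with median centring. Macrophages express cathepsin H as well. The summed signal of 6 macrophage markers was 93920 to 122054 in Stat3Δ/Δ cells and 67727 to 83273 in control cells, with log2 fold changes of 0.75 for Marco and 0.62 for Mrc1. Most of each sum came from a single marker, at 71289 to 84770 in Stat3Δ/Δ and 46375 to 69859 in control cells. The log2 fold changes of the 6 ran from 0.045 to 0.81, and 4 were higher on every Stat3Δ/Δ array. The part of macrophages in the Ctsh values was not tested.

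Slc34a2 (1416854_at), the phosphate cotransporter, had signals of 81030, 79156 and 100695 in Stat3Δ/Δ pools 1 to 3 and 106931, 98939 and 105916 in control pools 1 to 3. As deposited, Stat3Δ/Δ pool 3 was above control pool 2. After quantile normalization the log2 values were 16.47, 16.37 and 16.53 in Stat3Δ/Δ pools and 16.60, 16.59 and 16.61 in control pools, and the groups no longer overlapped. The log2 fold change was -0.15 (SE 0.23, 95% interval -0.67 to 0.38, limma adjusted p = 0.892), and -0.27 and -0.41 under the other scalings. Its p under the methods' t-test, which uses the spread of this probe set alone, was 0.0347 before and 0.686 after Benjamini-Hochberg adjustment over all probe sets.

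The brightest probe sets of the 4 surfactant protein genes, Napsa and Slc34a2 shared a shift between arrays, which Ctsh did not. On the log2 scale of the deposited signals, relative to the mean of the controls, the median of the 7 genes other than Abca3 was -0.19, -0.29 and 0.14 in Stat3Δ/Δ pools 1 to 3 and 0.059, -0.090 and 0.028 in control pools 1 to 3. The highest signal of the array followed the same order, at 133468, 126474 and 159180 for Stat3Δ/Δ pools and 154710, 142564 and 149761 for control pools. Ctsh was at 0.40, -0.29 and 0.25 in Stat3Δ/Δ pools and 0.16, 0.093 and -0.26 in control pools, highest in Stat3Δ/Δ pool 1 and lowest in Stat3Δ/Δ pool 2 and control pool 3. Abca3 was at -1.07, -0.89 and -0.57 in Stat3Δ/Δ pools and -0.17, 0.034 and 0.14 in control pools, lower than each of the other genes on every Stat3Δ/Δ array.

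**Figure D3:**
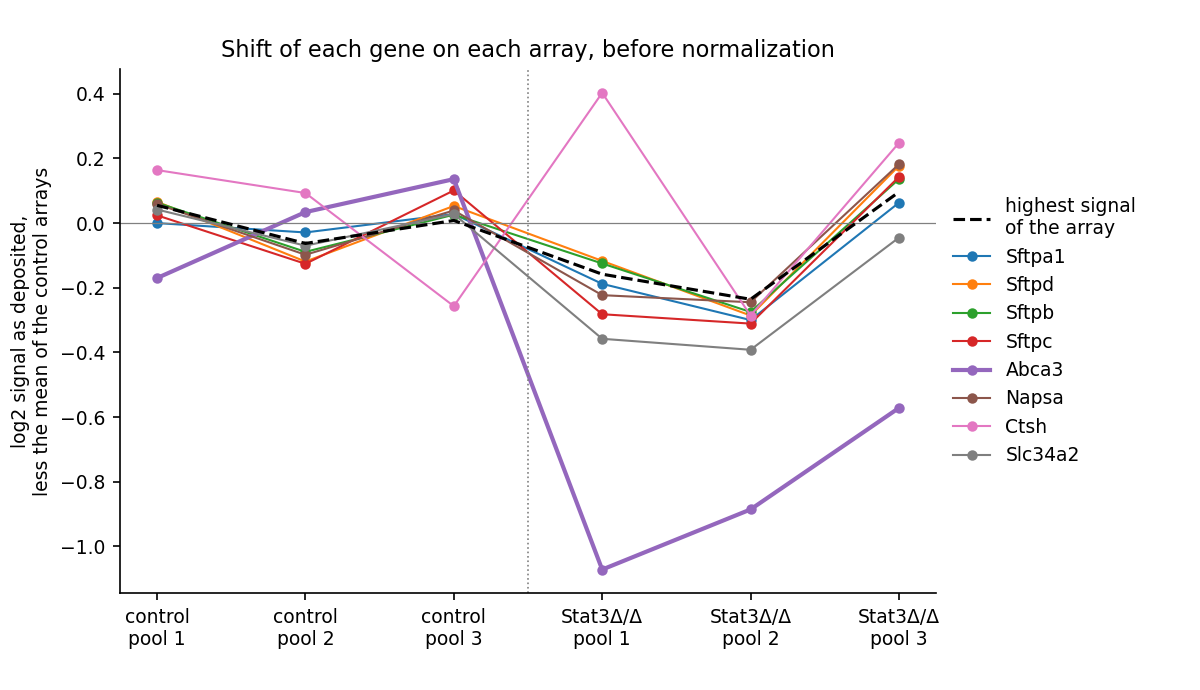
Log2 signal as deposited of the 8 genes on each array, less the mean of the 3 control arrays (vertical axis, log2 units), with the highest signal of each array as a dashed line; lines join the points of 1 gene and the pools have no order. Abca3 lies from -1.07 to -0.57 on the Stat3Δ/Δ arrays, while the other genes lie from -0.39 to 0.40 there.

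A ratio taken on 1 array is free of any factor that scales the whole array. The log2 ratio of Abca3 to Sftpc was -1.71, -1.50 and -1.64 in Stat3Δ/Δ pools 1 to 3 and -1.12, -0.76 and -0.89 in control pools 1 to 3. The groups did not overlap, and for the difference of -0.69 an exact permutation test (two-sided) gave p = 0.1, the smallest p that 3 against 3 pools can reach. The ratio to Slc34a2 gave the smallest difference, -0.58, and the ratio to Ctsh the largest, -0.97. All 7 ratios separated the groups with the same exact p of 0.1 by permutation, and they share the Abca3 values. A ratio shows unequal change of both genes and not which of them changed. The 3' over 5' ratio of the control probe sets, a log2 ratio that reports on RNA integrity, was lower in every Stat3Δ/Δ pool than in any control pool. For Actb it was 0.39 ± 0.046 (SD, n = 3) in Stat3Δ/Δ and 0.64 ± 0.17 (SD, n = 3) in control cells, with an exact permutation p = 0.1. For Gapdh it was -0.41 ± 0.099 and 0.020 ± 0.26 (SD, n = 3), also with an exact permutation p = 0.1. The part of this ratio and of the other cells in the Abca3 values was not tested.

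**Figure D4:**
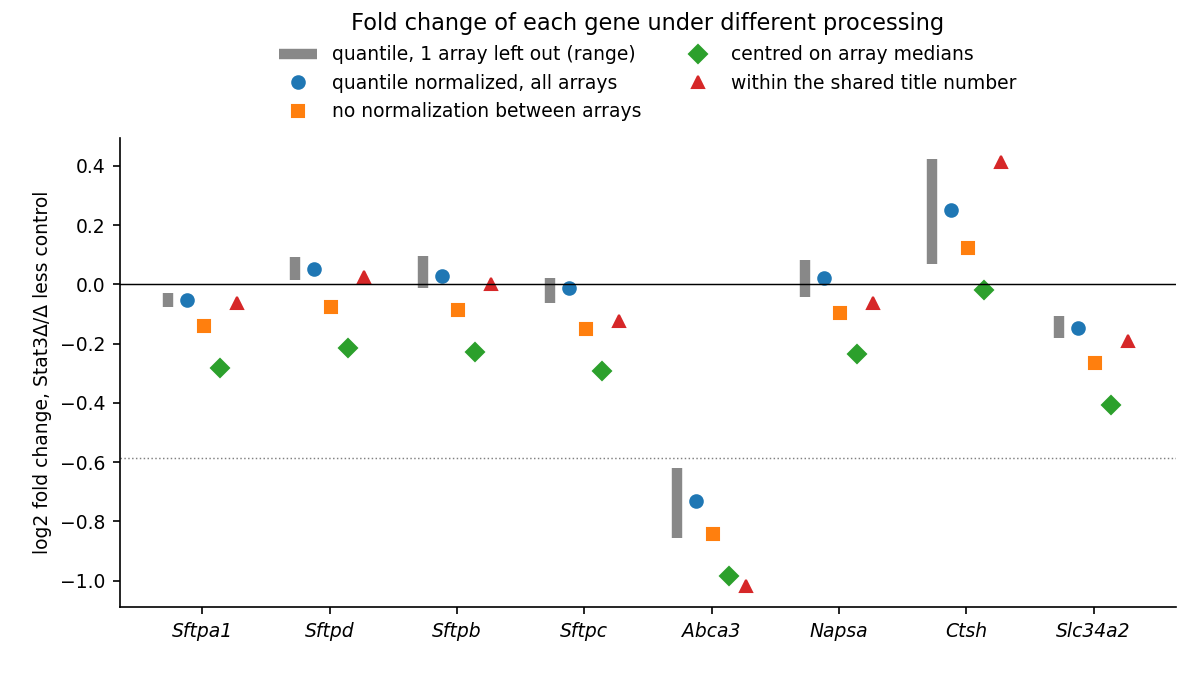
Log2 fold change (Stat3Δ/Δ less control) of the brightest probe set of each gene under different processing, with grey bars for the range when 1 array was left out and the dotted line at a fold of 1.5. Abca3 stays at -0.62 or below in every setting drawn, whereas Sftpd, Sftpb and Napsa lie above 0 after quantile normalization and below 0 under the other scalings, and Ctsh reaches -0.019 with median centring.

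Genes whose pattern over the 6 arrays was most like the members' mean, or like Abca3, were found by Pearson's r of the normalized log2 values, as a description. For the mean of the 8 genes these were Gm14137 (r = 0.994), Col19a1 (0.987), Ninj2 (0.986), B230216N24Rik (0.985) and Usp46os2 (0.985), and 100 of 18185 genes had r over 0.9. For Abca3 alone they were Spice1 (r = 0.995), Klf2 (0.994) and Zcchc3 (0.992), and 261 genes had r over 0.9. How many unrelated genes would reach this r over 6 arrays was not computed, so the counts are no measure of shared regulation. The genes listed for the mean had log2 fold changes from -0.71 (Gm14137) to -0.35 (Usp46os2). The members themselves did not share 1 pattern after normalization, with r from -0.61 (Abca3 and Ctsh) to 0.89 (Sftpc and Napsa).

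Other genes of surfactant production were taken from 4 lists of 45 genes in all, of which 41 had a probe set of their own. None of the 41 passed the FDR, and 23 were below 0 and 18 above, with a median of -0.047. By p and fold without the FDR, 3 were lower and 3 higher (7.32% each), beside 5.56% lower and 2.19% higher of all 18193 genes by their brightest probe sets, and the lowest adjusted p was 0.515 (limma).

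Among 8 transcription factors of surfactant genes, 6 were below 0 and 2 above, with a median of -0.16. Foxa2, a forkhead factor of the respiratory epithelium, had signals of 2312, 4109 and 4810 in Stat3Δ/Δ pools 1 to 3 and 6549, 6064 and 8927 in control pools 1 to 3, with no overlap. Its log2 fold change was -0.98 (SE 0.35, unadjusted p = 0.0218, limma adjusted p = 0.532). Nkx2-1, the factor that specifies lung epithelium, had -0.026, Foxa1 0.13, Cebpa -0.27 and Etv5 -0.046, with -0.046 to 1.10 over 3 probe sets. Klf5 had the highest value of the list, 0.38, with -0.56 to 0.96 over 3 probe sets. Srebf1, which encodes the sterol-regulated factor SREBP1, had -0.52 with overlapping arrays (limma adjusted p = 0.726), and Gata6 had -0.53, lower on every Stat3Δ/Δ array (limma adjusted p = 0.645), with -0.53 to 0.15 over its 3 probe sets. By p and fold 1 of 8 was lower, and this count was 0 without Stat3Δ/Δ pool 1 or control pool 3 or by the methods' t-test, and 2 without Stat3Δ/Δ pool 3, with median centring or with the title number as a block. The list median was -0.38 with median centring and -0.47 with the title number as a block.

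Among 13 genes of lamellar body biogenesis and protein processing, 8 were below 0 and 5 above, with a median of -0.15. Rab32, a small GTPase of lysosome-related organelles, was higher on every Stat3Δ/Δ array, at 2161, 4254 and 2687 against 1276, 1354 and 1726, with a log2 fold change of 0.96 (SE 0.31, unadjusted p = 0.0141, limma adjusted p = 0.515). Its relative Rab38 had -0.20. The lysosomal membrane proteins Lamp1 and Lamp2 had -0.20 and -0.15 (Lamp2 -0.15 to 0.44 over 4 probe sets). Ap3b1, a subunit of the AP-3 adaptor, had 0.22 and, at its other probe set, 0.73. Of the Hermansky-Pudlak genes, which serve lysosome-related organelles, Hps1 had -0.69, Hps3 -0.024, Hps4 -0.20, Hps5 0.18 and Hps6, a dim probe set, -1.09, each with an adjusted p of 0.634 or more (limma). Over all of their probe sets Hps1 ran from -0.79 to 0.24 and Hps3 from -0.024 to 0.16. By p and fold 1 of 13 was higher, and 0 without Stat3Δ/Δ pool 2 or with the title number as a block. The count of 0 lower became 1 without Stat3Δ/Δ pool 2 or 3 or control pool 2 or 3, with median centring, with an intensity trend and robust variance, or with the title number as a block. The list median was -0.33 with median centring, -0.024 with the low-signal filter and 0.037 without Stat3Δ/Δ pool 3.

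Among 11 genes of phospholipid synthesis and transport, 4 were below 0 and 7 above, with a median of 0.11, of -0.050 with median centring and of -0.12 with the title number as a block. Stard10, a phospholipid transfer protein, was lower on every Stat3Δ/Δ array, at 11117, 12990 and 16338 against 26279, 19416 and 18728, with a log2 fold change of -0.62 (SE 0.25, unadjusted p = 0.0399, limma adjusted p = 0.574). Lpcat1, the acyltransferase that remodels surfactant phosphatidylcholine, had -0.15 at its brightest probe set and -0.62 to -0.15 over 5. Of the genes for the rate-limiting enzyme of phosphatidylcholine synthesis, Pcyt1a had 0.22 and the dim Pcyt1b -1.02 (limma adjusted p = 0.586). Chka, a choline kinase, had 0.22 and Abca1, a cholesterol and phospholipid transporter of the same family as Abca3, had 0.43. Other probe sets of these genes were higher. Pcyt1a ran from 0.22 to 0.77 over 4, Chka from 0.22 to 0.97 over 3 and Abca1 from 0.43 to 1.31 over 3. The 2 probe sets of Pcyt1b gave -1.02 and -0.24. By p and fold 2 of 11 were lower. This count was 0 without any of pools 1 and 2 of either group, with no pseudocount, with the replicate block and with the title number as a block. It was 1 without control pool 3, with the larger pseudocount, with no normalization, with the low-signal filter, by the methods' t-test and with an intensity trend and robust variance.

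Among 9 genes of surfactant secretion and clearance, 5 were below 0 and 4 above, with a median of -0.14, which was 0.080 with the title number as a block. Both chains of the GM-CSF receptor, through which macrophages acquire the capacity to clear surfactant, were higher by p and fold. Csf2rb had signals of 10017, 13379 and 8875 against 4498, 6400 and 6834, with no overlap, and a log2 fold change of 0.88 (limma adjusted p = 0.518). Csf2ra had 0.85 (limma adjusted p = 0.562), with 1 Stat3Δ/Δ pool at 2211 below the highest control at 2312. The macrophage markers given above lie in the same direction, and their part in these values was not tested. Adgrf5, a receptor that restrains surfactant pool size, had -0.24 and, at its other probe set, 0.76. The purinergic receptor P2ry2 had -0.30, and the vesicle fusion proteins Vamp2 and Snap23 had -0.43 and 0.53. Snap23 ran from 0.037 to 0.95 over 3 probe sets and Vamp2 from -0.43 to -0.25 over 2. The count of 2 higher by p and fold was 0 without Stat3Δ/Δ pool 2 or control pool 1 or with the title number as a block, and 3 without Stat3Δ/Δ pool 3. It was 1 without Stat3Δ/Δ pool 1 or control pool 2, with the replicate block, by the methods' t-test, with no pseudocount and with median centring.

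**Figure D5:**
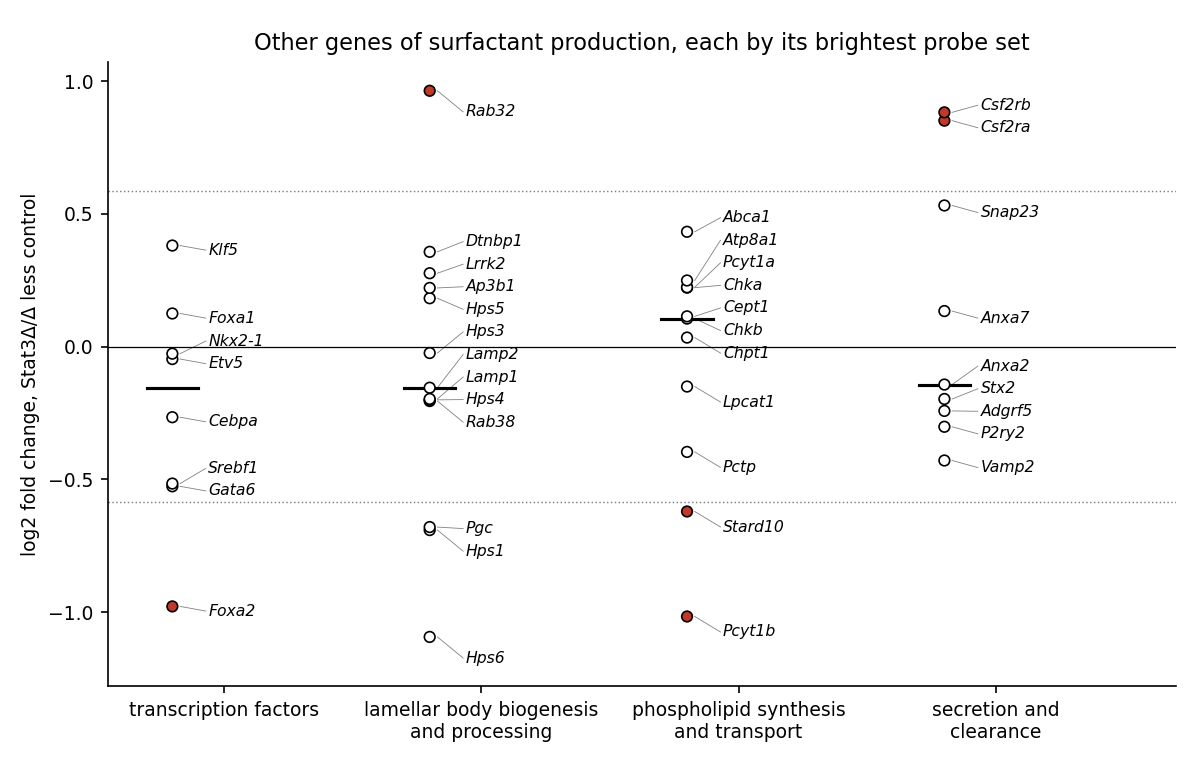
Log2 fold change (Stat3Δ/Δ less control, quantile normalized) of 41 other genes of surfactant production in 4 lists, each gene by its brightest probe set; red points were past both the unadjusted 0.05 threshold and a fold of 1.5 (dotted lines), and short horizontal lines are list medians. The medians lie between -0.16 and 0.11, with 3 red points above 0 and 3 below, and none of the 41 passed the FDR; the median of 0.11 becomes -0.050 with median centring.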

How the data were processed

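Type II cells of 3 Stat3Δ/Δ pools and 3 control pools, of 3 mice each, were assigned to groups from the titles and source names. The deposited values are signal intensities on a linear scale, computed by the authors in Affymetrix Microarray Suite 5.0 (MAS5 per the labels), with a 2% trimmed mean of 1500 on every array; the RMA values that the study tested were not used here. The number of arrays limits the precision.

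Of 45101 probe sets, 64 controls were left out. A pseudocount of 69.9, the signals' 20th percentile, was added, and the log2 values were quantile normalized between arrays. A linear model of the group was fitted in limma 3.58.1 (R 4.3.3). P-values were two-sided and adjusted by Benjamini-Hochberg over 45037 probe sets. Calls needed a 1.5-fold change, an FDR of at most 10% and an unadjusted limma p within 0.05. The platform annotation names 1 gene for 34945 probe sets, several for 932 and none for 9160; for a gene with several, the brightest on average stood for the gene. The fit was tested on simulated data with 200 changed probe sets.

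The genes named are all members, any gene of the 4 pathway lists, the first 2 of a marker list, the 5 genes most like the members' mean and the 3 most like Abca3; Stat3 was added as the targeted gene. The members and lists were chosen with earlier results of these data known. Alternatives were other pseudocounts and scalings, a low-signal filter, the methods' t-test, limma with an intensity trend and robust variance, a replicate block, a block on the leading title number, the mean over a gene's probe sets, and each array left out. Python 3.11.15 was used with numpy 2.4.6, pandas 2.3.3, scipy 1.17.1 and, for plots, matplotlib 3.10.9.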

Additional observations from a re-analysis of the deposited data

How the results depend on the processing

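Of 226 values of the 14 probe sets under the alternatives, 200 kept their direction, 26 were reversed and 0 passed the FDR. The low-signal filter, the methods' t-test, the intensity trend and the replicate block leave each fold change as it was, so their values could not reverse. Values within the shared title number and means over probe sets have no p, so they could not pass. The counts are therefore no measure of robustness. The number lower by p and fold, 1 of 14, was 2 with a block on the leading title number and 0 to 1 with 1 array left out (0 without control pool 2, control pool 3 or pool 1 of the Stat3Δ/Δ mice). The number lower on every array, 2 of 14 beside 7.66% of all probe sets, was 1 with no normalization (6.39%), 3 with median centring (9.34%), 7 within the 3 arrays of the shared title number (35.6%) and 2 to 5 with 1 array left out (11.4% to 16.4%; 5 without control pool 1, beside 11.4%). Fewer arrays to separate raise these shares over all probe sets too. The median over the genes, 0.0041, was -0.12 with no normalization, -0.26 with arrays centred on their medians, -0.064 with the title number as a block or within the shared number, and -0.078 by the mean over each gene's probe sets. The cause of these differences was not tested.

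With no normalization the log2 fold change of the dimmer bright Sftpa1 probe set turned to -0.086, of Sftpd to -0.075, of Sftpb to -0.088 and of Napsa to -0.095. With median centring these became -0.23, -0.22, -0.23 and -0.24, and the Ctsh probe sets -0.019 and -0.052. With the title number as a block or within it, Sftpa1 gave -0.030, Napsa -0.064 and the dim Sftpc probe set 0.023, and the mean over probe sets gave -0.16 for Napsa. With 1 array left out, the ranges that crossed 0 were -0.0030 to 0.067 for Sftpa1, -0.013 to 0.095 for Sftpb, -0.064 to 0.022 for Sftpc, -0.044 to 0.083 for Napsa, -0.77 to 0.054 for its dim probe set and -0.024 to 0.29 for the dimmer Ctsh probe set.

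The pool numbers were not taken to pair the samples, since same-numbered pools deviated with correlations of -0.084, -0.0088 and -0.24, and no pool correlated best with its own number. Among the 3 arrays that share a title number, Stat3Δ/Δ pools 1 and 2 correlated with control pool 3 at 0.13 and 0.14, and Stat3Δ/Δ pool 3 with control pool 1 gave 0.19. The replicate block cannot move a log2 fold change in this balanced design, -0.73 for Abca3, and changes its error alone, which gave an unadjusted limma p of 0.0407 (adjusted 0.752), and 1 of 14 probe sets was lower by p and fold. Over all probe sets, 1902 were lower and 1865 higher by p and fold, against 1376 and 2319 with no normalization and 2286 and 1536 with median centring.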
